A study of Canis lupus familiaris with 13 samples.

Results

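The sarcomere is the contractile unit of striated muscle, and the genes described here encode its parts other than the myosin heavy chains. Of 41 listed symbols, 40 were matched by gene symbol among the 30951 genes of the table, and each matched 1 gene. TNNC2 is not analysed here. All 40 passed the filter on low counts, with the smallest single value at 130 counts (MYBPH in dog 1 sample 1). RNA was sequenced from biopsies of the biceps femoris, a thigh muscle, taken under local anaesthesia. The 4 animals were wild-type, between 9 and 10 months of age. Sample number 0 was the basal state and was measured in 3 of them (dogs 2, 3 and 4, 1 library each). The other 10 libraries were taken under insulin stimulation. Each dog gave 1 library as sample 1 and 1 as sample 2, while sample 3 exists for dogs 1 and 2. The labels do not say how samples 1, 2 and 3 differ, and dog 1 had no basal library. All groups carry the same genotype. Libraries of 1 dog are repeat biopsies, so anything else they share cannot be told apart from the dog itself.

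In a sarcomere, thin filaments of actin carry tropomyosin and the troponin complex, whose subunits bind calcium (TNNC), inhibit contraction (TNNI) and anchor the complex to tropomyosin (TNNT). Thick filaments are built from myosin, whose light chains support the neck of the motor, and from myosin-binding proteins. The M-band holds thick filaments in register at the centre, titin spans from there to the Z-disc, and the Z-disc anchors thin filaments through alpha-actinin. Many of these proteins exist as one isoform typical of slow, fatigue-resistant fibres and another typical of fast fibres, so that their transcripts together reflect the fibre makeup of a muscle. A bulk biopsy cannot separate fewer fibres of a type from less RNA per fibre.

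Library depth lay between 45200416 and 81948641 counts. All 8 skeletal muscle markers looked for were found, with summed levels from 207581 to 374470 CPM (counts scaled to a common library size after TMM normalization). Dog 1 sample 2, dog 3 sample 0 and dog 4 sample 0 held the most extreme levels of sarcomere genes. Dog 1 sample 2 had the highest level of 14 of the 40 genes and the lowest of 8, and 0.0505% of its counts came from mitochondrially encoded genes, against 0.133% to 0.395% elsewhere. Dog 3 sample 0 had the lowest level of 11 genes and the highest of 1, and its 6 fibroblast markers summed to 2895 CPM, against 228 to 1186 CPM in the other libraries. Dog 4 sample 0 had the highest level of 9 genes and the lowest of 3, and its fibroblast sum of 228 CPM was the lowest. Summed endothelial markers (5 of 5 found) lay between 60.02 and 298 CPM and neutrophil markers (6 of 7) between 23.5 and 74.3 CPM, with basal and insulin libraries overlapping in both. The part of these differences in the results was not tested. Values without each library are given where a call rests on it.

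**Figure D1:**
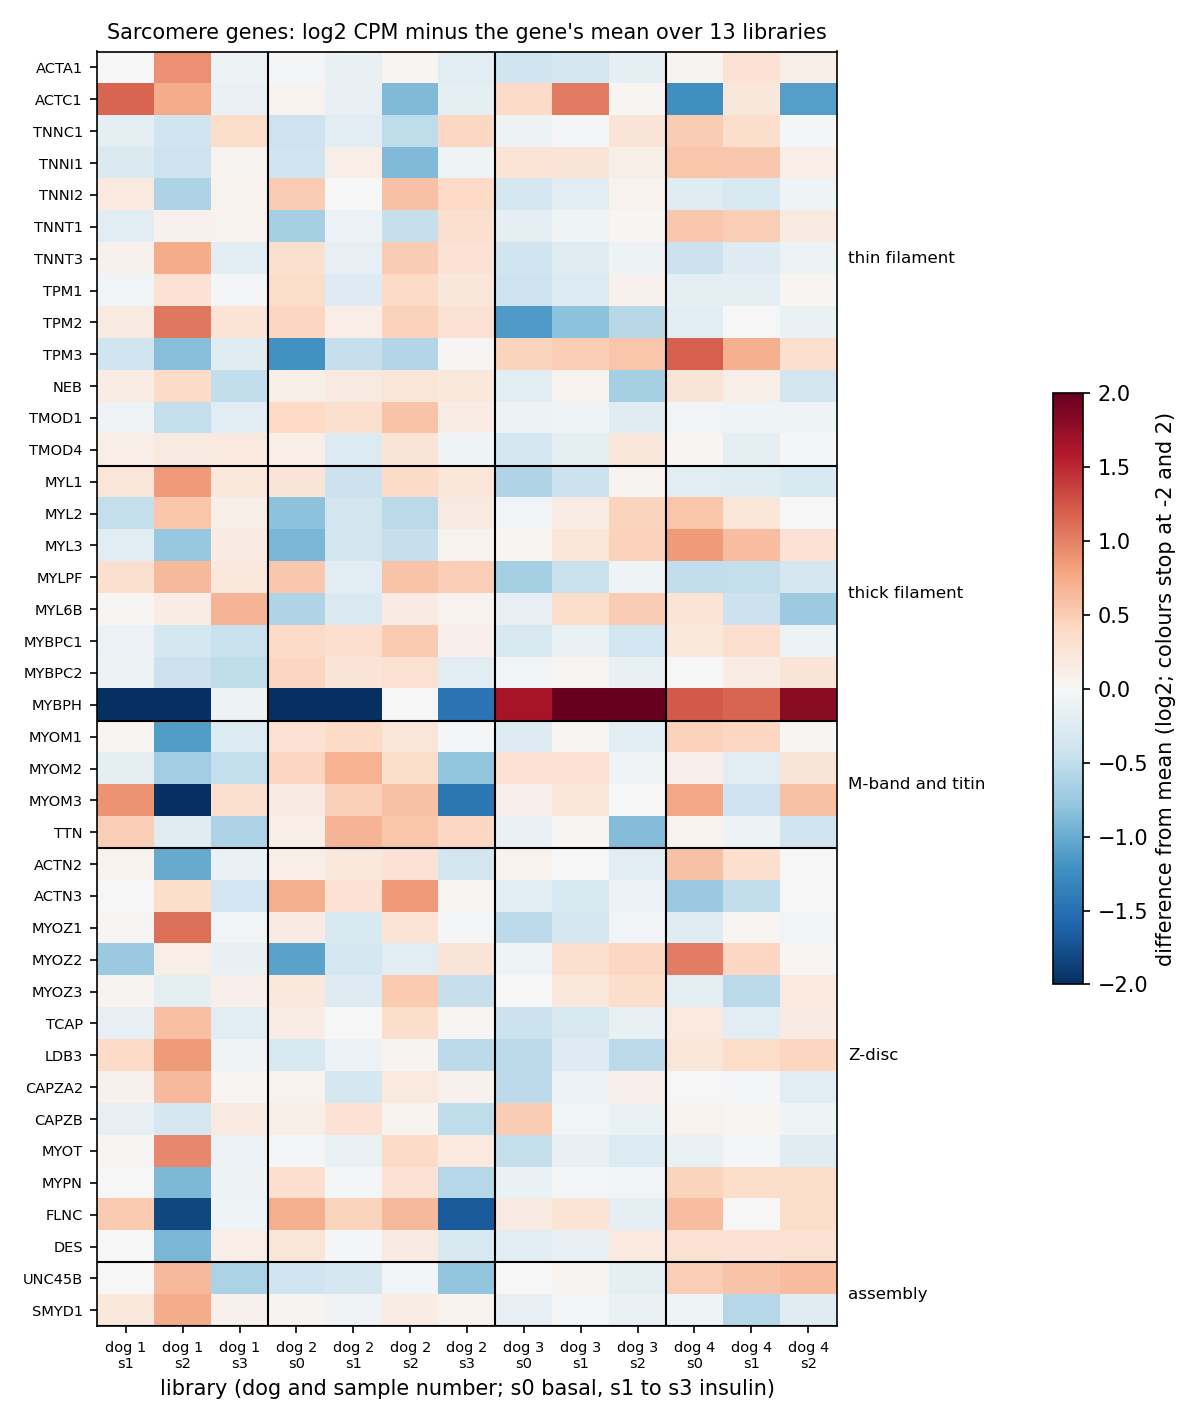
Level of each of the 40 sarcomere genes (rows, grouped by structure) in each of the 13 libraries (columns, grouped by dog), as log2 CPM minus the mean of that gene. MYBPH separates dogs 3 and 4 from dogs 1 and 2, and the column of dog 1 sample 2 holds both the deepest red and the deepest blue of many rows.

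The 40 genes together took 29.9% ± 2.27 of all counts (SD, n = 13), from 26.9% in dog 3 sample 0 to 35.8% in dog 1 sample 2. In dog 2 the share was 29.0% in the basal library and 30.2%, 30.9% and 30.5% in the insulin libraries. In dog 3 it was 26.9% in the basal library against 27.3% and 27.4%, and in dog 4 it was 29.4% against 30.1% and 29.3%. The insulin mean of each of these dogs lay above its basal library, although sample 2 of dog 4 lay just below, and no test was run on the share. ACTA1, the skeletal muscle alpha-actin, alone took 10.4% to 18.4%, and TTN, which encodes titin, took 1.67% to 4.81%. By structure, thin filament genes took 16.2% to 25.5%, thick filament genes 4.80% to 6.06%, the M-band with titin 1.84% to 5.08% and Z-disc genes 2.38% to 3.00%. These are shares of reads and not of molecules, since long transcripts give more reads. No transcript lengths were used, so levels of different genes are not ranked.

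**Figure D2:**
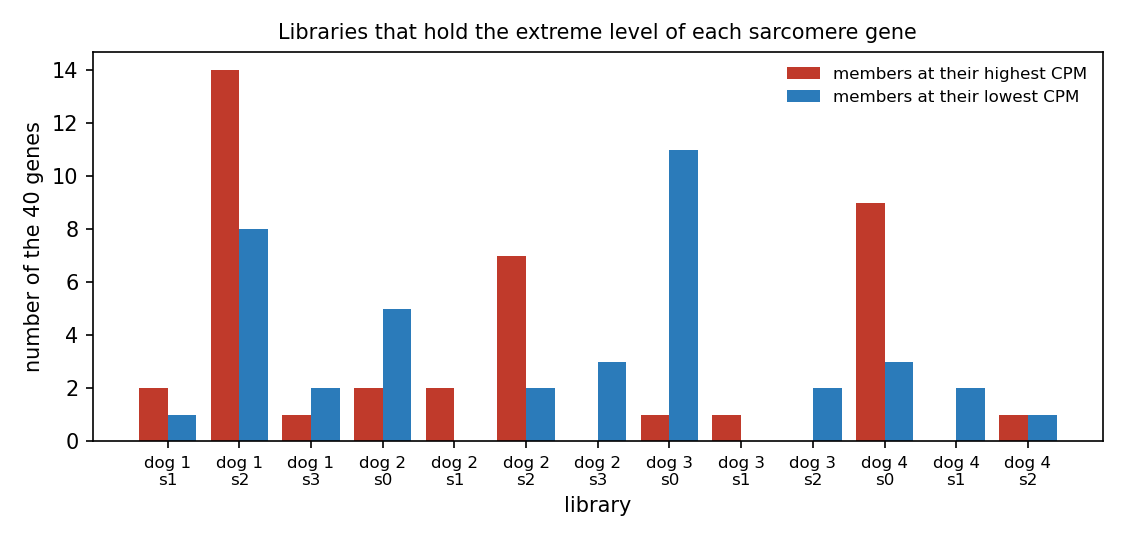
Number of the 40 sarcomere genes (vertical axis) that reached their highest (red) or lowest (blue) CPM in each of the 13 libraries (horizontal axis). Dog 1 sample 2 holds 14 highest and 8 lowest levels, dog 4 sample 0 holds 9 highest, and dog 3 sample 0 holds 11 lowest.

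The first comparison asked whether sarcomere transcripts differed between insulin and basal libraries within a dog. Dog 1 has no basal library, so its libraries enter the estimate of spread here and not the fold changes. None of the 40 genes passed the threshold, an adjusted p under 0.05 in edgeR's quasi-likelihood test over all 14629 genes tested, where 0.137% of genes passed (0.0273% higher and 0.109% lower under insulin). At an unadjusted p under 0.05 the count was also 0 of 40, against 4.12% of all genes. DESeq2 called 0 of the 40 and 104 of all 14629 genes. Log2 fold changes ranged from -0.40 for FLNC to 0.84 for MYBPH, with a median of 0.05 over the sarcomere genes and 0.00 over all genes. In 0 of 40 genes did basal and insulin libraries fail to overlap, against 0.93% of all genes. The same direction in dogs 2, 3 and 4 was seen for 8 of the 40 (20%), against 25% of all genes.

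By structure, 10 of 13 thin filament genes, 6 of 8 thick filament genes and 7 of 13 Z-disc genes had a positive fold change. All 4 genes of the M-band and titin had a negative one, between -0.21 and -0.03, each within 1 SE of 0. Over all genes tested 49.8% had a positive fold change. Genes of 1 structure do not vary independently, so these counts carry no test. MYBPH, a myosin-binding protein of the thick filament, had the lowest p of the 40. Its basal levels were 2.73, 40.4 and 30.3 CPM in dogs 2, 3 and 4, and its insulin libraries ran from 1.97 to 83.1 CPM with a median of 12.6 CPM. The groups overlapped, with dogs 3 and 4 above dogs 1 and 2 in both. Within dogs the mean log2 difference of insulin from basal was 0.96 in dog 2, 0.99 in dog 3 and 0.26 in dog 4, and the fitted log2 fold change was 0.84 ± 0.56 (SE; edgeR adjusted p = 1). Without the filter on low counts MYBPH passed upward with the same fold change, 0.84 ± 0.22 (adjusted p = 0.0264). That fit called 140 of all 25207 genes then tested.

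LDB3, the Z-disc protein also called ZASP or Cypher, and MYOT, which encodes myotilin, were the other genes with a higher mean under insulin in 3 of 3 dogs. ACTN2, MYOM2, TMOD1, CAPZB and FLNC had a lower mean in 3 of 3 dogs. ACTN2, an alpha-actinin of the Z-disc, had 2117, 2020 and 2898 CPM in the basal libraries of dogs 2, 3 and 4. Its insulin libraries ran from 960 to 2429 CPM with a median of 1946 CPM, and its log2 fold change was -0.21 ± 0.22 (edgeR adjusted p = 1), or -0.11 without dog 4 sample 0. FLNC, a filamin that links the Z-disc to the cell surface, had 1676, 1148 and 1566 CPM in basal libraries and 289 to 1598 CPM in insulin libraries. Its log2 fold change was -0.40 ± 0.45 (adjusted p = 1), and -0.24 without dog 2 sample 3. That library had 317 CPM and dog 1 sample 2 had 289 CPM, with all other libraries at 888 CPM or more. The value of dog 1, a dog without a basal library, adds to the spread and not to this fold change.

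CAPZB encodes a subunit of the protein that caps the barbed end of actin filaments. It had basal levels of 9.31, 12.1 and 8.96 CPM and insulin levels from 6.06 to 10.5 CPM, a log2 fold change of -0.27 ± 0.20 (edgeR adjusted p = 1) that was -0.10 without dog 3 sample 0. Whether its counted region covers the whole transcript was not tested. TNNT1, the slow troponin T, had 3491, 4800 and 8016 CPM in the basal libraries of dogs 2, 3 and 4, the lowest and the highest of these lying in dogs 2 and 4. Its log2 fold change was 0.20 ± 0.20 (adjusted p = 1). ACTA1 had 117234, 91391 and 124934 CPM in basal libraries and 94606 to 227160 CPM in insulin libraries, with a median of 117014 CPM. The highest value was that of dog 1 sample 2, and the fold change was 0.07 ± 0.21 on the log2 scale (adjusted p = 1).

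**Figure D3:**
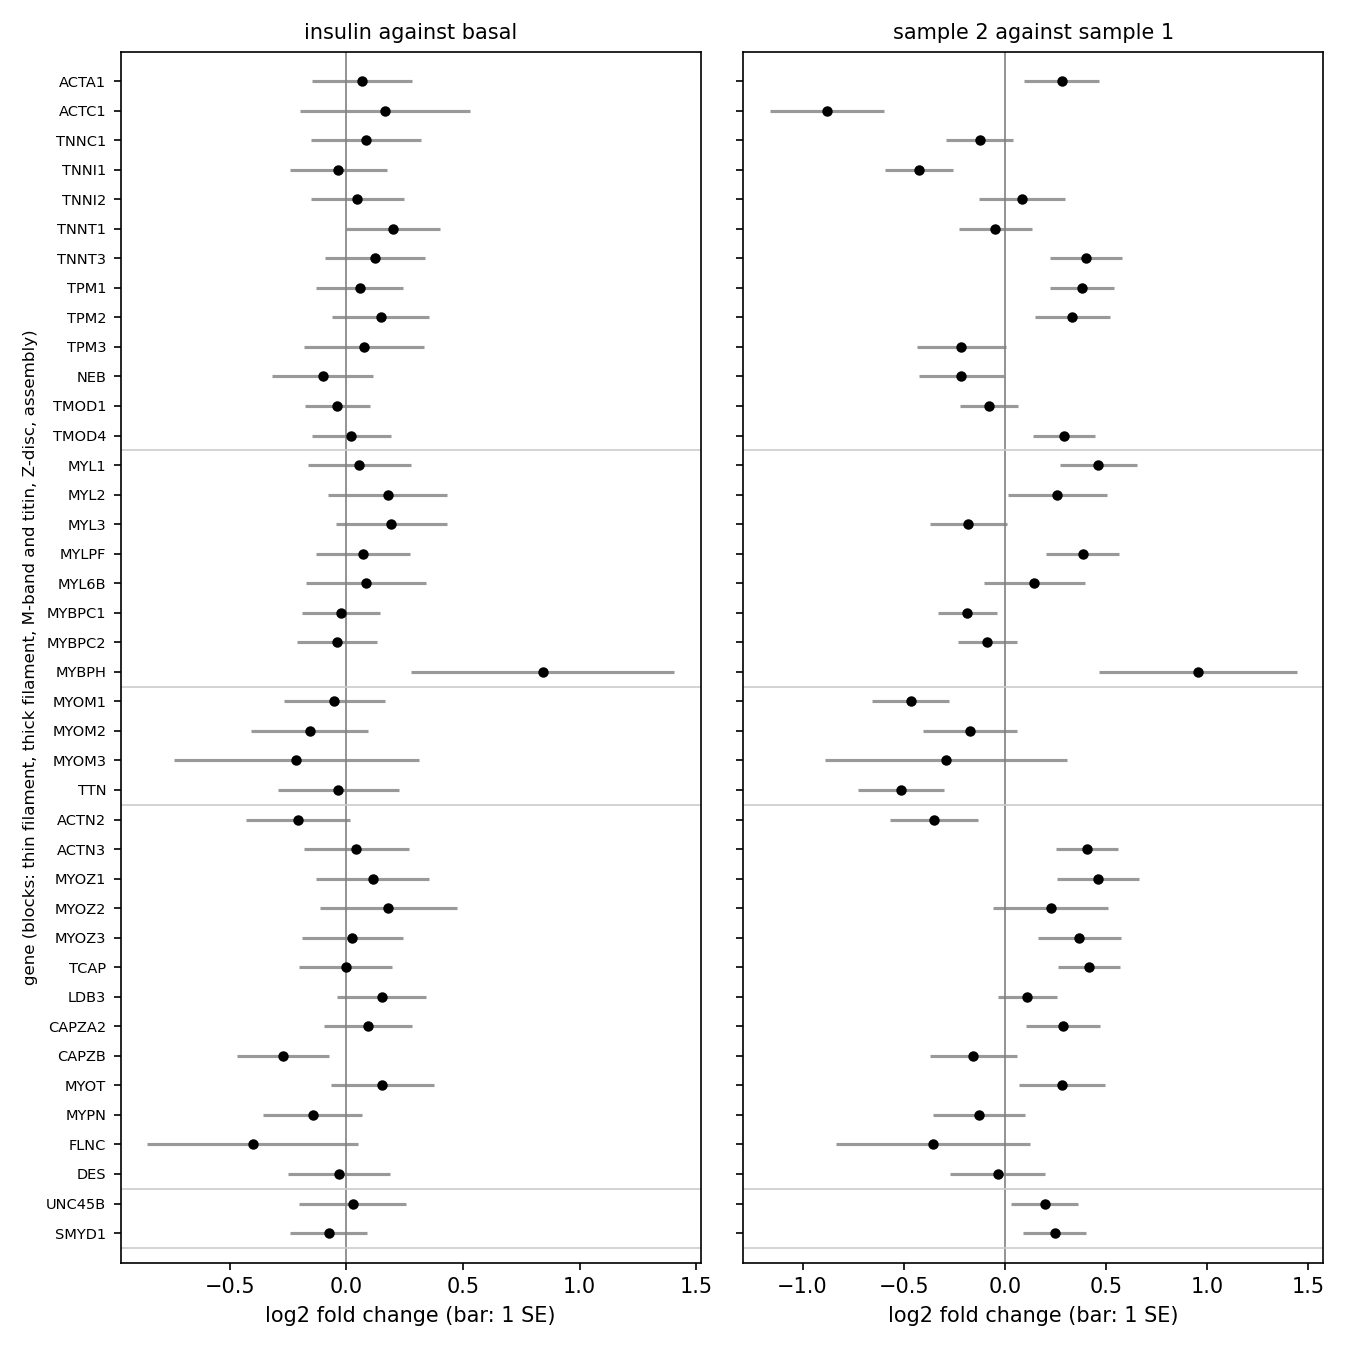
Log2 fold change (points) with 1 SE (bars) of the 40 sarcomere genes in insulin against basal (left) and in sample 2 against sample 1 (right), from edgeR fits with dog as a block. At left most points lie within 1 SE of 0, from -0.40 for FLNC to 0.84 for MYBPH, and at right they run from -0.88 for ACTC1 to 0.95 for MYBPH.

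Splitting the insulin libraries by sample number gave no call either. In sample 1 against sample 0, 0 of 40 sarcomere genes passed, as did 0% of all genes, and at an unadjusted p under 0.05 the counts were 0 of 40 and 2.99% of all genes. The lowest p belonged to ACTC1, the cardiac actin, at 0.62 ± 0.31 on the log2 scale, followed by TCAP, a small Z-disc protein that binds titin, at -0.18 ± 0.17, SMYD1 at -0.18 ± 0.17, TTN at 0.24 ± 0.24 and MYL3 at 0.21 ± 0.21. ACTA1 had -0.02 ± 0.20, and edgeR's adjusted p was 1 for these 6 genes. In sample 2 against sample 0, 0 of 40 passed, against 0.0479% of all genes (0.0137% higher, 0.0342% lower). MYBPH was the 1 gene with an unadjusted p under 0.05 (2.5% of the 40, against 4.95% of all genes), at 1.20 ± 0.54 (edgeR adjusted p = 0.955), or 0.42 without dog 2 sample 2. TNNT3, the fast troponin T, had 0.36 ± 0.20, ACTN3, the fast-fibre alpha-actinin, 0.30 ± 0.17 (0.12 without dog 4 sample 0), MYOZ1 0.39 ± 0.23, TPM2 0.35 ± 0.21 and ACTA1 0.26 ± 0.21 (0.11 without dog 1 sample 2), all with an adjusted p of 0.955. These comparisons share their basal libraries.

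Among the comparisons by insulin and sample number, this set differed most at the unadjusted level between samples 2 and 1. Both were taken under insulin and are available from all 4 dogs. None of the 40 genes passed after adjustment over all genes, as did 0% of all genes. DESeq2 called 0 of the 40 and 0 of all genes. At an unadjusted p under 0.05 there were 10 of 40 (25%), against 3.38% of all genes, and 11 of 40 (27.5%) had 1 direction in all 4 dogs, against 13.9% of all genes. The 40 genes do not vary independently, so these shares carry no test.

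Among the 10, ACTC1 had the lowest p. It stood at 31.3, 12.6, 28.8 and 16.3 CPM in sample 1 of dogs 1 to 4 and at 23.3, 7.52, 14.4 and 6.48 CPM in sample 2. Every dog had the lower value in sample 2, with a log2 fold change of -0.88 ± 0.28 (edgeR adjusted p = 0.902). ACTC1 is closely similar to the far more abundant ACTA1, and whether reads of ACTA1 were counted for ACTC1 was not tested, so its level is uncertain. TNNI1, the slow troponin I, had 944, 1265, 1374 and 1683 CPM in sample 1 and 870, 629, 1249 and 1267 CPM in sample 2. It was lower in sample 2 in 4 of 4 dogs (-0.42 ± 0.17, adjusted p = 0.902).

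ACTN3 had 2002, 2423, 1591 and 1420 CPM in sample 1 and 2536, 3600, 1837 and 2009 CPM in sample 2. Each dog was higher in sample 2, with a log2 fold change of 0.41 ± 0.15. TCAP (0.42 ± 0.15) and the fast-fibre tropomyosin TPM1 (0.38 ± 0.16) were also higher in sample 2 in all 4 dogs, and edgeR's adjusted p was 0.902 for all 3. TTN, from 26926 to 46286 CPM in sample 1 and from 15814 to 42228 CPM in sample 2, was lower in sample 2 in 4 of 4 dogs, as was the M-band gene MYOM1. ACTA1 had 0.28 ± 0.19 (adjusted p = 0.902) and 0.0558 without dog 1 sample 2.

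The clearest differences lay between dogs. An F test of the dogs in the model with sample number, which sets the spread between dogs against that between repeat biopsies, called 6 of the 40 genes (15%), against 3.13% of all 14629 genes. At an unadjusted p under 0.05 it took 21 of 40 (52.5%), against 15.6% of all genes. The spread of dog means exceeded the spread within dogs for 16 of the 40 genes (40%), against 23.2% of all genes. All genes were not matched to the 40 for expression level, and the 40 do not vary independently. These shares therefore carry no test. The 6 were MYBPH and MYL3 of the thick filament, TPM3 and TPM2 of the thin filament, and ACTN3 and LDB3 of the Z-disc. The test says that the dogs differ and not which dog differs from which.

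MYBPH had the lowest p (edgeR adjusted p = 0.00701). Dog 1 samples 1, 2 and 3 had 1.97, 2.83 and 12.1 CPM, and dog 2 samples 0 to 3 had 2.73, 2.47, 13.02 and 4.62 CPM. Dog 3 samples 0, 1 and 2 had 40.4, 83.1 and 76.8 CPM, and dog 4 samples 0, 1 and 2 had 30.3, 29.0 and 45.0 CPM. All 6 libraries of dogs 3 and 4 lay above all 7 libraries of dogs 1 and 2. The gene passed whichever of the 13 libraries was left out (highest adjusted p = 0.0394), but not without the filter on low counts (adjusted p = 0.0865).

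TPM3 encodes the alpha-tropomyosin of slow fibres. It had 1486, 1093 and 1662 CPM in dog 1 samples 1 to 3 and 848, 1429, 1307 and 1991 CPM in dog 2 samples 0 to 3. In samples 0, 1 and 2 it had 2677, 2774 and 2872 CPM in dog 3 and 4517, 3213 and 2483 CPM in dog 4. Dogs 3 and 4 again lay above dogs 1 and 2 in every library (edgeR adjusted p = 0.0204). The call was lost on leaving out sample 1 of dog 1, 3 or 4, sample 0 of dog 2, or sample 2 of dog 3 (highest adjusted p = 0.0612).

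MYL3, the essential light chain of slow and ventricular myosin, followed the same order of dog means. Its levels were 1820, 1245 and 2368 CPM in dog 1, 1116, 1632, 1527 and 2210 CPM in dog 2, 2180, 2495 and 2894 CPM in dog 3, and 3808, 3254 and 2570 CPM in dog 4 (edgeR adjusted p = 0.0328). Here dog 3 overlapped dogs 1 and 2, while dog 4 lay above all libraries of both. MYL3 passed on leaving out sample 2 or 3 of dog 1, sample 3 of dog 2, sample 0 of dog 3 or sample 2 of dog 4, and was lost without any 1 of the other 8 libraries (highest adjusted p = 0.148, without dog 2 sample 0).

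ACTN3, found in fast fibres, ran the other way. It had 2002, 2536 and 1525 CPM in dog 1, 3299, 2423, 3600 and 2053 CPM in dog 2, 1726, 1591 and 1837 CPM in dog 3, and 1192, 1420 and 2009 CPM in dog 4 (edgeR adjusted p = 0.0248). Dog 2 was highest, and all its libraries lay above those of dogs 3 and 4. ACTN3 passed on leaving out sample 2 or 3 of dog 1, sample 1 or 3 of dog 2, or sample 2 of dog 4, and was lost without any 1 of the other 8 (highest adjusted p = 0.165, without dog 2 sample 0).

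TPM2 encodes beta-tropomyosin, which slow and fast fibres share. It was lowest in dog 3, at 6509, 8168 and 9756 CPM, and every library of the other dogs lay above these. Dog 4 had 12267, 14482 and 13139 CPM, dog 2 had 19373, 15649, 19796 and 17770 CPM, and dog 1 had 16307, 29880 and 17337 CPM (edgeR adjusted p = 0.0247). The call was lost without sample 0 or 2 of dog 2, any library of dog 3, or sample 0 of dog 4 (highest adjusted p = 0.12, without dog 3 sample 2). Dog 3 sample 0, the library with the high fibroblast sum, had the lowest TPM2 level of all.

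LDB3 divided the dogs in another way. Dog 1 had 507, 697 and 371 CPM and dog 4 had 460, 499 and 525 CPM. Dog 2 had 311, 359, 404 and 271 CPM and dog 3 had 267, 325 and 269 CPM (edgeR adjusted p = 0.0327). All libraries of dog 4 lay above all of dogs 2 and 3. LDB3 passed on leaving out sample 2 or 3 of dog 1 or sample 3 of dog 2, and was lost without any 1 of the other 10 libraries (highest adjusted p = 0.132, without dog 3 sample 2).

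**Figure D4:**
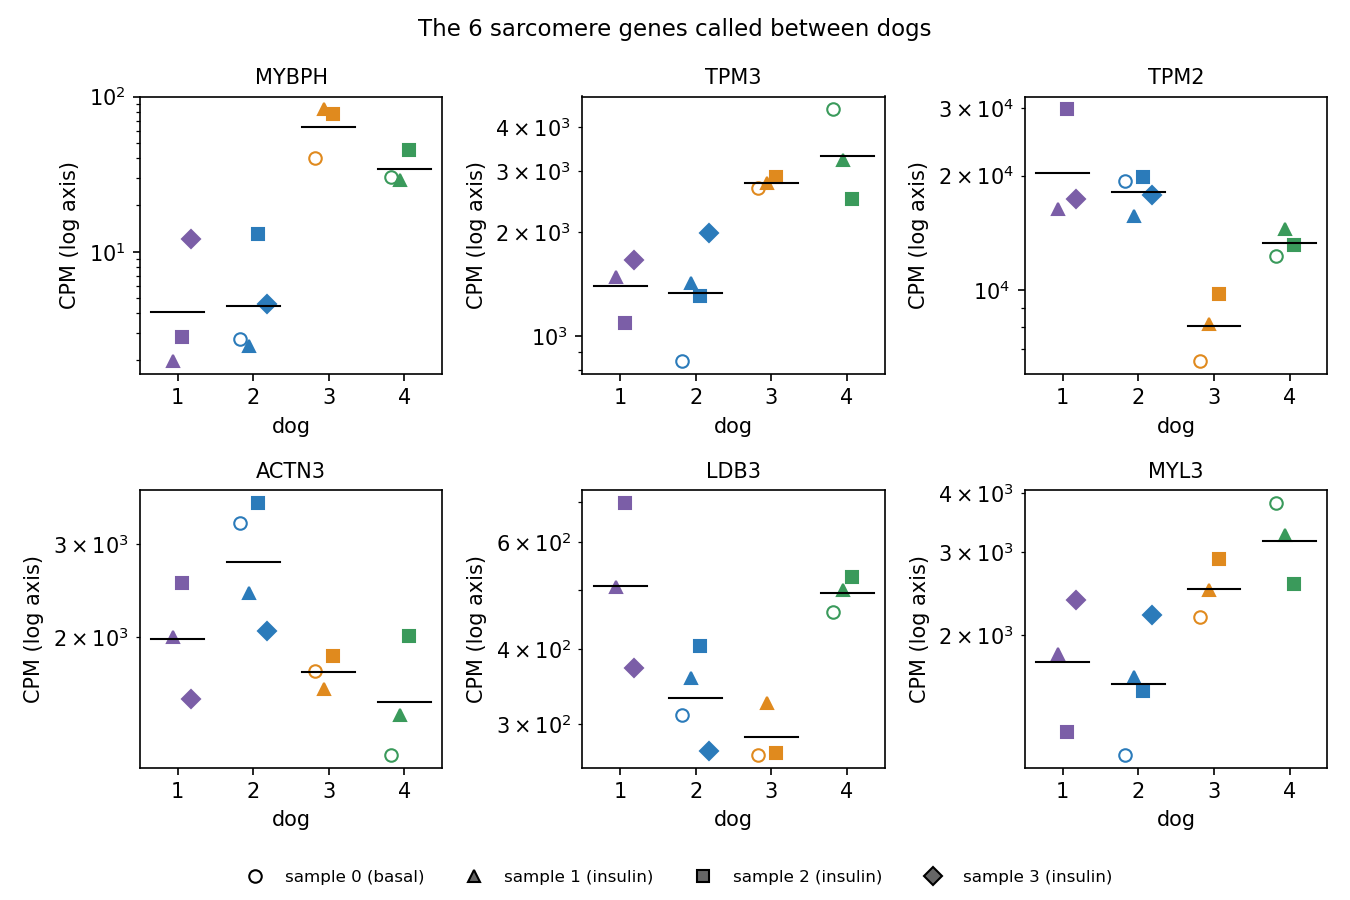
CPM on a log axis of the 6 sarcomere genes that passed in the test between dogs, by dog, with 1 point per library (open circles basal, filled symbols insulin) and a line at the mean of log2 CPM. MYBPH, TPM3 and MYL3 have higher means in dogs 3 and 4 than in dogs 1 and 2, ACTN3 is highest in dog 2, TPM2 is lowest in dog 3, and LDB3 is highest in dogs 1 and 4.

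The number of sarcomere genes called between dogs rested on single libraries, as did the number over all genes. Over all genes it ran from 193 without dog 3 sample 2 to 625 without dog 1 sample 2. MYBPH was the 1 gene called when sample 0 of dog 2 or sample 1 or 2 of dog 3 was left out. Calls numbered 2 on leaving out sample 1 of dog 1, sample 2 of dog 2, or sample 0 or 1 of dog 4, and 3 on leaving out sample 0 of dog 3. They numbered 5 on leaving out sample 2 of dog 4, 6 for sample 1 or 3 of dog 2, and 7 for sample 2 or 3 of dog 1. DESeq2 called 13, the 6 among them, and 1329 of all 14629 genes where edgeR called 458. A model with dog alone in edgeR called 5, of which 4 were among the 6, and 725 of all 14629 genes. ACTN3 (adjusted p = 0.109) and MYL3 (adjusted p = 0.0786) did not pass in it. Without the filter on low counts 8 were called, 5 of them among the 6, and 793 of all 25207 genes then tested. Summed smooth muscle and pericyte markers (9 of 10 found, CNN1 and MYOCD near 0) overlapped between all dogs, at 224 to 392 CPM in dog 1, 244 to 325 CPM in dog 2, 233 to 388 CPM in dog 3 and 216 to 345 CPM in dog 4. Fibroblast markers summed to 542 to 1186 CPM in dog 1, 436 to 932 in dog 2, 514 to 2895 in dog 3 and 228 to 584 in dog 4. Endothelial markers summed to 60.02 to 145 CPM in dog 1, 79.0 to 266 in dog 2, 153 to 298 in dog 3 and 115 to 189 in dog 4, so that dogs 1 and 3 did not overlap. Skeletal muscle markers, ACTA1 among them, summed to 215517 to 374470 CPM in dog 1, 211804 to 248057 in dog 2, 207581 to 235562 in dog 3 and 273072 to 321985 in dog 4, where all libraries lay above those of dogs 2 and 3. For these lists, their part in the differences between dogs was not tested.

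Slow and fast isoforms of the same protein were then set against each other within each library, as the log2 ratio of slow to fast CPM. Of the 9 pairs, ACTN2 to ACTN3 sets a gene present in all fibre types against a fast-fibre gene. MYOM3 to MYOM2 is a pair of myomesins that is not read as slow against fast. The other pairs set a slow against a fast isoform. Counts over the 9 pairs include all of them. Differences in such a ratio between libraries need no gene length, although its zero point does, so a ratio of 0 does not mean equal amounts. Dogs 3 and 4 had higher mean ratios than dogs 1 and 2 in 7 of 9 pairs. The exceptions were MYBPC1 to MYBPC2 and MYOM3 to MYOM2. In 3 pairs every library of dogs 3 and 4 lay above every library of dogs 1 and 2. These were TPM3 to TPM1 of tropomyosin, MYL3 to MYL1 of the essential light chains and MYL2 to MYLPF of the regulatory light chains. The ratios were not tested between dogs. This grouping of the dogs was chosen after the values were seen. TPM3, MYL3 and ACTN3, called between dogs above, are parts of these ratios, so the ratios are no separate evidence for it.

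For TPM3 to TPM1 the mean log2 ratio was -3.14 in dog 1, -3.31 in dog 2, -1.87 in dog 3 and -1.70 in dog 4, with an SD within dogs of 0.53. For MYL3 to MYL1 the means were -3.63, -3.47, -2.36 and -2.09 (SD within dogs 0.52), and for MYL2 to MYLPF they were 0.04, -0.36, 0.94 and 1.08 (0.43). The troponin pairs also had higher means in dogs 3 and 4, with overlap between libraries. TNNT1 to TNNT3 had means of -1.13, -1.38, -0.74 and -0.24 (0.44) and TNNI1 to TNNI2 had -1.60, -2.18, -1.12 and -0.88 (0.48). In MYOZ2 to MYOZ1, a pair of Z-disc proteins that bind calcineurin, the means were -4.48, -4.24, -3.35 and -3.29 (0.53). The slow myosin heavy chain MYH7 had 15812 to 17080 CPM in dog 4 and 8079 to 13670 CPM in dog 3, against 3491 to 9424 CPM in dog 1 and 6007 to 14733 CPM in dog 2. The fast heavy chain MYH2 had 14110 to 35076 CPM in dogs 1 and 2 and 6782 to 11364 CPM in dogs 3 and 4, whereas the fast MYH1 had 1685 to 3603 CPM in dog 1 and 14584 to 24483 CPM in the other dogs.

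**Figure D5:**
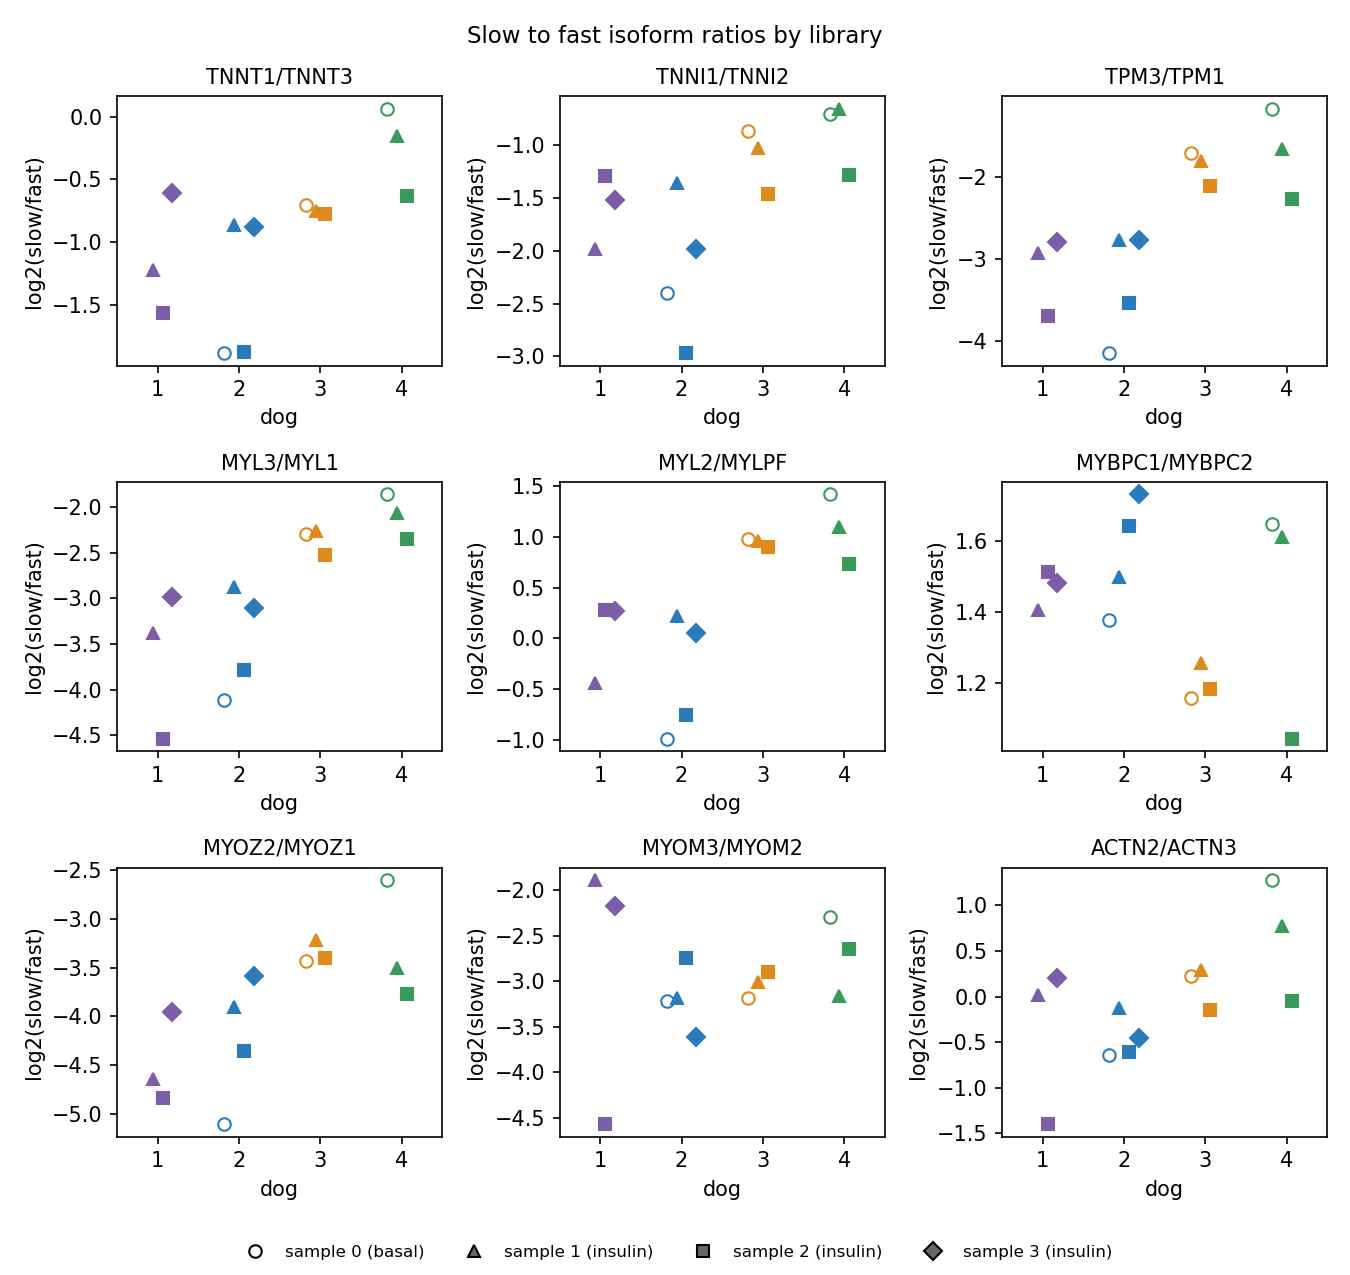
Log2 ratio of slow to fast isoform CPM by dog, with 1 point per library (open circles basal, filled symbols insulin). Among the pairs are ACTN2, present in all fibre types, to ACTN3, and the myomesins MYOM3 to MYOM2, not read as slow against fast. The basal library of dog 4 is the highest of all 13 in 6 pairs and that of dog 2 the lowest in 4 pairs.

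The change of these ratios under insulin went opposite ways in dogs 2 and 4. In dog 2 the mean of the insulin libraries was above the basal library in 9 of 9 pairs, and in 7 of them all 3 insulin libraries were. In dog 4 it was below the basal library in 9 of 9 pairs, and in 8 of them both insulin libraries were. Dog 3 was above in 3 and below in 6. The basal library of dog 2 had the lowest ratio of all 13 libraries in 4 pairs, and that of dog 4 had the highest in 6 pairs. Each dog has 1 basal biopsy, so the spread between basal biopsies of a dog is unknown, and the pairs come from the same libraries.

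For TPM3 to TPM1, insulin minus basal was 1.12 in dog 2, -0.25 in dog 3 and -0.80 in dog 4, a mean of 0.02 ± 0.99 (SD, n = 3 dogs). For TNNT1 to TNNT3 it was 0.68, -0.05 and -0.46, and for MYOZ2 to MYOZ1 it was 1.16, 0.12 and -1.04. Over the 9 pairs the mean change lay between -0.28 for ACTN2 to ACTN3 and 0.14 for MYL3 to MYL1, smaller than its SD over dogs in every pair. An exact two-sided sign-flip permutation test over 3 dogs cannot go below p = 0.25, and it gave p between 0.75 and 1.

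Samples 2 and 1 were compared in the same ratios. In a comparison chosen after the values were seen, sample 2 was below sample 1 in 4 of 4 dogs in 5 of the 9 pairs, and above it in 4 of 4 dogs in 0. TPM1, ACTN3, MYL1, TNNT3 and MYOZ1, the fast parts of these 5 pairs, each had an unadjusted p under 0.05 in edgeR between these samples. The ratios are therefore no separate evidence. For TPM3 to TPM1 the difference was -0.78, -0.77, -0.31 and -0.60 in dogs 1 to 4, with a mean of -0.61 ± 0.22 (SD, n = 4). For ACTN2 to ACTN3 the mean was -0.79 ± 0.45, for MYL3 to MYL1 -0.66 ± 0.45, for TNNT1 to TNNT3 -0.47 ± 0.41 and for MYOZ2 to MYOZ1 -0.27 ± 0.12. TNNI1 to TNNI2 had -0.49 ± 0.95 and MYL2 to MYLPF -0.17 ± 0.70, with dog 1 the 1 dog above 0 in both. MYOM3 to MYOM2 was higher in sample 2 in dogs 2, 3 and 4 (0.44, 0.11 and 0.51) and lower in dog 1 (-2.69), and MYBPC1 to MYBPC2 was higher in dogs 1 and 2 and lower in dogs 3 and 4.

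Other thin filament genes are given by their range. TNNC1, the calcium sensor of slow and cardiac troponin, ran from 2143 CPM in dog 2 sample 2 to 4331 CPM in dog 4 sample 0. TNNI2, the fast troponin I, ran from 2136 CPM in dog 1 sample 2 to 4931 CPM in dog 2 sample 2. TPM1 spanned 8744 to 15188 CPM, and NEB, the giant protein nebulin along the thin filament, 6095 to 12487 CPM. Of the pointed-end caps, TMOD4 lay between 753 and 1146 CPM. TMOD1 lay between 50.1 and 104 CPM, and all 4 libraries of dog 2 (77.6 to 104 CPM) were above all others, although its adjusted p between dogs was 0.115 in edgeR.

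Among thick filament genes, MYL1, the fast essential light chain, ran from 10662 to 28971 CPM, and MYLPF, the fast regulatory light chain, from 5338 to 13252 CPM. MYL2, the slow and cardiac regulatory light chain, ran from 6205 CPM in dog 2 sample 0 to 16079 CPM in dog 1 sample 2. MYL6B, a further essential light chain, lay between 75.3 and 199 CPM. MYBPC1, the slow form of myosin-binding protein C, ran from 7664 to 15002 CPM and MYBPC2, the fast form, from 2743 to 5243 CPM, and both had their highest dog mean in dog 2. Between dogs MYLPF and MYBPC1 had adjusted p of 0.0753 and 0.0815 in edgeR and did not pass.

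MYOM3, which encodes an M-band myomesin, had 22.5 CPM in dog 1 sample 2 and 40.7 CPM in dog 2 sample 3, against 83.2 to 207 CPM in the other 11 libraries, a 9.19-fold range. These libraries were also lowest for FLNC, as given above, and for MYOM2 with 536 and 498 CPM, where the others had 623 to 1403 CPM. MYOM1 had 366 CPM in dog 1 sample 2, its lowest level, but 785 CPM in dog 2 sample 3, within the 657 to 1099 CPM of the other libraries. Among Z-disc genes, MYPN, which encodes the Z-disc protein myopalladin, had 169 and 212 CPM in them and 287 to 431 CPM in the others. DES, the intermediate filament that ties Z-discs together, had 4821 and 7396 CPM in them and 7805 to 11270 CPM in the others. In dog 1 sample 2 the same biopsy had the highest ACTA1, MYL1, MYOZ1 and MYOT of all 13, whereas dog 2 sample 3 had the highest level of 0 of the 40 genes.

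At the Z-disc, MYOZ1, the fast-fibre myozenin, ran from 2573 to 7900 CPM, MYOZ2, the slow and cardiac one, from 121 to 517 CPM, and MYOZ3 from 101 to 210 CPM. MYOT ran from 2734 to 7420 CPM, TCAP from 2203 to 4515 CPM and CAPZA2, an alpha subunit of capping protein, from 323 to 728 CPM. Their highest levels were in dog 1 sample 2 for MYOZ1, MYOT, TCAP and CAPZA2, in dog 4 sample 0 for MYOZ2 and in dog 2 sample 2 for MYOZ3. UNC45B, a chaperone of myosin, ran from 164 to 442 CPM, the highest level being that of dog 1 sample 2. All 3 libraries of dog 4 were at 398 CPM or more. SMYD1, a methyltransferase needed for myofibril assembly, ran from 103 to 253 CPM. Neither passed between dogs (edgeR adjusted p = 0.117 and 0.216).

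Other genes of the sarcomere and its attachments were listed as well. Of 43 listed, 37 were found and 36 tested, and 0 passed in insulin against basal or between sample numbers in edgeR. At an unadjusted p under 0.05 there were 3 in insulin against basal, against 4.12% of all genes, 1 in sample 1 against 0, 1 in sample 2 against 0 and 3 in sample 2 against 1, against 3.38% of all genes. The lowest p for insulin was that of PALLD, the actin-bundling palladin, at -0.87 ± 0.26 (edgeR adjusted p = 0.506), where dog 2 sample 0 had 159 CPM and all other libraries 24.7 to 63.4 CPM. XIRP1, an actin-binding repeat protein, had -1.06 ± 0.45 and the ubiquitin ligase TRIM55 had -0.43 ± 0.20 (adjusted p = 1 for both). For XIRP1 too, dog 2 sample 0 stood apart, at 361 CPM against 15.1 to 120 CPM in all other libraries. Between dogs 1 of the 36 passed (2.78%, against 3.13% of all genes). It was TNNT2, the cardiac and developmental troponin T, with 5.96 to 9.83 CPM in dog 3 and 0.549 to 4.49 CPM in the libraries of the other dogs (edgeR adjusted p = 0.0306).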

How the data were processed

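The deposited table gives raw read counts per gene and library, as whole numbers made by the authors, per the file headers. A normalized signal from the authors stands beside them, at a constant ratio to the counts within each library, and was used only for checking. The submitters' processing notes name Bowtie 0.12.2 and CanFam3.1 without their roles. The counting program, annotation and strand setting are not given in the sources used here. Text on the study design names mouse retina, unlike all sample labels, and was not used. No transcript sequence or length was used.

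Tests used edgeR 4.0.16 under R 4.3.3 (filterByExpr, TMM, robust quasi-likelihood). The models held dog and stimulation, or dog and sample number, and p-values were adjusted over all 14629 genes by Benjamini-Hochberg with a threshold of 0.05. Each SE is the fold change divided by the root of F. Dog was a block because libraries of a dog come from the same animal. Deviations from group means had a median r of 0.18 in 15 same-dog pairs of libraries and -0.06 in 47 between-dog pairs, and 11 of 13 libraries were closest to one of their own animal. No libraries were duplicates (chi-square per gene at least 144 within groups). P-values between dogs measure dogs against repeat biopsies. Statistics are printed for members that passed, otherwise for the 5 of lowest p, and for ACTA1. Others are given by range. The members and lists were chosen with earlier results of these data known. The script was tested on simulated counts. Alternatives were RLE scaling, scaling without sarcomere and myosin genes, no filter, DESeq2 1.42.0, no block, summed counts, and leaving out each library or dog.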

Additional observations from a re-analysis of the deposited data

Results flagged for a closer look

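Of 80 tests, the 40 genes in sample 1 and in sample 2 with 4 dogs each, 4 had 1 dog far from the other 3, where chance gives about 1 in 20. In sample 1, TNNT1 stood at 7787 CPM in dog 4 against 4749 to 5192 CPM in the others, and MYPN at 409 CPM in dog 4 against 312 to 317 CPM. TMOD1 in sample 1 stood at 87.4 CPM in dog 2 against 65.9 to 66.4 CPM. In sample 2, DES stood at 4821 CPM in dog 1 against 10330 to 11270 CPM.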

How the results depend on the processing

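The count of 0 sarcomere genes past the threshold held in insulin against basal under all alternatives but 1. The fit without a filter on low counts called 1 (MYBPH), and 140 of all 25207 genes. The count of 0 held in the 3 comparisons between sample numbers under all alternatives run for them (summed counts were run for insulin against basal). With no replicate block it was 0 in all 4. Between dogs the count of 6 became 13 with DESeq2 and ran from 1 to 7 when 1 library was left out. It was 1 without all of dog 2, 1 without all of dog 3 and 3 without all of dog 4. In those fits 79, 166 and 190 of all genes passed. The count of sarcomere genes was 5 in the model with dog alone and 8 without the filter. Over all genes the counts ran from 1 to 140 in insulin against basal (main 20), 0 to 42 in sample 1 against 0 (main 0), 0 to 73 in sample 2 against 0 (main 7), and 79 to 1329 between dogs (main 458). With no replicate block 6 genes passed in insulin against basal. The share of counts was 17.7% without ACTA1. The median log2 fold change of the 40 under insulin, 0.05, was -0.06 with all libraries of dog 3 left out. Among the genes with printed statistics, and leaving out the other members, signs turned for 4. TNNT1 under insulin had -0.00992 without dog 2 and -0.0104 to 0.40 with 1 library left out. In sample 1 against 0, MYL3 had -0.0416 and ACTA1 had 0.0821 with no replicate block, and ACTA1 had 0.0575 without dog 1 and 0.00173 without dog 2. With 1 library left out, ACTA1 ran from -0.16 to 0.0598 and TTN from -0.0290 to 0.39. The causes were not tested. Every level of the 40 sarcomere genes rests on at least 130 counts. This does not hold for genes outside that set, such as TNNT2, which had 0.549 CPM in dog 2 sample 0.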

Other observations

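Transcripts of heart or embryonic muscle were scarce. Of 10 markers 7 were found, and MYBPC3, MYL4 and NPPA had medians of 0 to 0.0989 CPM. MYH8, the perinatal myosin heavy chain, ran from 11.8 to 195 CPM, MYH3, the embryonic one, from 14.5 to 75.0 CPM, and TNNI3, the cardiac troponin I, from 6.97 to 22.8 CPM. Their sum was 117 to 260 CPM in dog 1, 90.2 to 200 CPM in dog 2, 48.3 to 108 CPM in dog 3 and 60.4 to 74.4 CPM in dog 4.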
